A study of Mus musculus with 12 samples.

Results

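Axon guidance ligands and receptors are cell surface and secreted proteins that steer growing nerve fibres and migrating cells. The genes described here were chosen by symbol: the Eph receptors of both classes, their ephrin ligands, the semaphorins, the plexins, the neuropilins Nrp1 and Nrp2, the Slits, the Robos, the netrins and the Unc5 receptors, with the Slitrk genes left out. This gave 69 of 18193 measured genes, of which 37 encode ligands and 32 encode receptors. They fall into 9 EphA and 4 EphB receptors, 5 ephrin-A and 3 ephrin-B ligands, 7 secreted class 3 semaphorins, 13 membrane semaphorins, 9 plexins, 2 neuropilins, 3 Slits, 4 Robos, 6 netrins including Ntng1 and Ntng2 (lipid-anchored relatives that do not bind Dcc), and 4 Unc5 receptors. Taken by its letters alone, the rule would have left out Unc5a to Unc5d and taken in Unc50 and the transcript Plxna4os1, which are no guidance receptors, and left 67 genes.

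The cells were TBV2, a wild-type embryonic stem (ES) cell line of the 129/SvP mouse strain, and all cultures shared LIF, the cytokine that keeps ES cells pluripotent, medium lacking non-essential amino acids, and gelatin-coated dishes with no feeder cells. Proline cultures (named PiCs, L-proline-induced cells, in the labels) received 500 µM L-proline for 5 days after low-density seeding, and control cultures (ESCs) were kept for 5 days with no addition. Affymetrix arrays measured transcripts in 2 biological replicates per group with 3 arrays each, 12 arrays in all. The comparison asks how added proline altered transcript levels in these cells.

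Eph receptors are receptor tyrosine kinases whose ephrin ligands sit on the membrane of neighbouring cells, so that contact signals into both cells. Ephrin-As are held by a lipid anchor and ephrin-Bs span the membrane. Semaphorins act through plexins, and most class 3 semaphorins need a neuropilin as co-receptor. Slits act through Robos, and netrins attract through Dcc and neogenin and repel through Unc5 receptors. Outside the nervous system the same families act in tissue boundaries, blood vessels and epithelia, and in the early embryo several are expressed before any neuron has formed.

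Of the 69 genes, 7 were higher and 1 was lower after proline at an adjusted p under 0.05 in limma, a linear model with variances shared across genes, fitted to all genes on the mean of each biological replicate. Of all 18193 genes, 3.03% were higher and 1.34% were lower by the same rule. The 7 were the semaphorins Sema3c and Sema4c, the ephrins Efna1 and Efnb2, Slit3 and the receptors Epha1 and Unc5b, and the 1 was the semaphorin Sema4a. The promoters of 5 of them are printed here because these genes rose together and each has exactly 1 promoter in the RefSeq table of mouse assembly GRCm38.p6. Each runs 5′ to 3′ on the strand of its gene, from 250 bases before to 50 bases after the first transcribed base, and capitals mark the GC box, GGGCGG or its other-strand form CCGCCC, of which neighbouring copies may overlap.
Sema3c: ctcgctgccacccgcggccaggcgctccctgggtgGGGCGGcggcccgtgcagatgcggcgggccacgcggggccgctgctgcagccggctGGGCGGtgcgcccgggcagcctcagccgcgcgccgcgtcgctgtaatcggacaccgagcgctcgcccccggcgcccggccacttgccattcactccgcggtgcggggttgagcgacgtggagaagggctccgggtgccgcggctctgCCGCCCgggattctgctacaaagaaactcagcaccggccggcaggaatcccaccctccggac
Epha1: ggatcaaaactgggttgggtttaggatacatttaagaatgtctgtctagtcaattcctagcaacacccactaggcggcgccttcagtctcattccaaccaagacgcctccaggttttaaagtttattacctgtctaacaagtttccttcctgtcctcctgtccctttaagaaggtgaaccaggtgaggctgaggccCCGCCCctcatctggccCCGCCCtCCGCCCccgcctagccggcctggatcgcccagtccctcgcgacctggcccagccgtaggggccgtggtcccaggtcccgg
Efnb2: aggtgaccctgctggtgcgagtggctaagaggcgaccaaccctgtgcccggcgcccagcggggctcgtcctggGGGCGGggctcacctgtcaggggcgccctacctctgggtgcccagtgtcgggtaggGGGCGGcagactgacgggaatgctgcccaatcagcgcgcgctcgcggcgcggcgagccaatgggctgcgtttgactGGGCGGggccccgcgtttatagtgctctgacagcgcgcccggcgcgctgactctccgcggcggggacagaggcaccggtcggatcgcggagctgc
Unc5b: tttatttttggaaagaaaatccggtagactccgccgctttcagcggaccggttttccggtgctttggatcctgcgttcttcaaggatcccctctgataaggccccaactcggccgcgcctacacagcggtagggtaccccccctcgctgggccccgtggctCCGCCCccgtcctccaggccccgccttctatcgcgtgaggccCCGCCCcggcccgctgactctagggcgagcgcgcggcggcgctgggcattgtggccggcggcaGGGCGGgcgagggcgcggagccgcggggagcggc
Slit3: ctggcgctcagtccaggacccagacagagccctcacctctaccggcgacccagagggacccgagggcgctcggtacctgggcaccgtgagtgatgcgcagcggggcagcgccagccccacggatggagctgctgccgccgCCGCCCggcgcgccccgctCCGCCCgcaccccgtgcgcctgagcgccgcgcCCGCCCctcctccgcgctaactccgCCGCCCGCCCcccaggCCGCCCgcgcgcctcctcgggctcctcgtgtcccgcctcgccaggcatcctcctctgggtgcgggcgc

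The Sema3c promoter lies at chr5:17574566-17574865 on the plus strand and holds 42 CpG dinucleotides and 3 GC boxes. The Epha1 promoter lies at chr6:42373219-42373518 on the minus strand, with 14 CpG and 3 GC boxes. That of Efnb2, at chr8:8661193-8661492 on the minus strand, has 35 CpG and 3 GC boxes. That of Unc5b, at chr10:60831532-60831831 on the minus strand, has 36 CpG and 3 GC boxes. Slit3 starts on the plus strand within chr11:35121206-35121505, with 41 CpG and 6 GC boxes. All 5 were GC-rich, from 58.0% in Epha1 to 78.33% in Slit3. The table held 76 promoters of 60 of the guidance genes. A GC box on either strand was found in 71.05% of those 76 and in 35.66% of all 32851 promoters of the table, and the letters TATAAA on either strand in 2.63% and 13.62%. Among the 5 printed promoters the TATAAA letters were found in Efnb2 alone. The median CpG count was 18.5 in promoters of guidance genes and 7.0 in all promoters. The full table covers 27025 genes, beyond the 18193 measured here, and no comparison with measured genes alone is given. Such matches are letters in a sequence, not measured binding.

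The deposited values are log2 signals with array medians from 5.99 to 6.03, so that a difference of 1 is a measured 2-fold change. A signal under the 40th percentile of all probe sets (log2 5.36) is called low here. No background level was estimated, so such a signal may not be separated from background. A difference that involves a low signal is a measured value and not exact. Pearson's r over probe sets was 0.996 to 0.998 between arrays of 1 biological replicate. It was 0.985 to 0.989 between biological replicates of a group and 0.962 to 0.981 between groups. Beta-actin probe sets at the 5′ end less those at the 3′ end, which reflect how intact the RNA was, read -0.66 and -0.24 in the proline replicates and -0.90 and -0.50 in the control replicates. The array probe sets for 18S ribosomal RNA read 9.74 and 8.35 after proline and 10.74 and 10.04 in controls. The 18S signal was lower in both proline replicates than in both control replicates, and it also differed between replicates of a group. The beta-actin measure differed by 0.25 between group means, less than between replicates (0.42 after proline, 0.40 in controls), and the groups overlapped. The part of both measures in the results was not tested. All 8 pluripotency markers examined, Pou5f1, Sox2 and Nanog among them, had log2 fold changes from -0.55 to -0.15, with 0 of 8 past the limma threshold and 3 lower at an unadjusted p under 0.05, a level at which 12.7% of all genes were higher and 9.32% lower. Their summed signal on the linear scale was 47299.7 to 51292.3 after proline and 60972.8 to 61980.2 in controls. In these bulk samples a smaller share of cells of a type cannot be told apart from less RNA per cell.

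The 7 higher genes were 10.1% of the 69 and the 1 lower gene was 1.45%, beside 3.03% and 1.34% of all genes. By size alone, 10 genes were at least 2-fold higher and 5 at least 2-fold lower with biological replicates that did not overlap. All genes gave 4.59% higher and 2.24% lower by that rule. Of these 15 genes, 4 higher (Efna5, Sema3e, Sema6a and Sema5a) and 4 lower (Epha4, Sema5b, Robo4 and Ntn1) did not pass the limma threshold. No test was made of the difference between these genes and others. The median log2 fold change was 0.08 over the 69 genes and -0.03 over all genes. Of the 69, 42 lay above 0 and 43 lay within 0.5 of 0, beside 7995 and 14531 of all 18193 genes. The family held a minority of large differences in both directions around a centre near 0, as the plot of every fold change shows. A smaller share of the family than of all genes lay within 0.5 of 0, and a larger share lay above 0. With any 1 of the 4 biological replicates left out, 0 of the 69 and 0 of all genes passed the threshold in limma. At an unadjusted p under 0.05, 19 of the 69 were higher and 6 lower without proline replicate 1, beside 12.2% and 8.01% of all genes. Without proline replicate 2 the counts were 16 and 5, beside 10.1% and 5.79%. They were 13 and 5 without control replicate 1, beside 9.99% and 5.22%, and 15 and 6 without control replicate 2, beside 9.89% and 9.59%. The replicate left alone was assumed to vary like the other group.

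**Figure D1:**
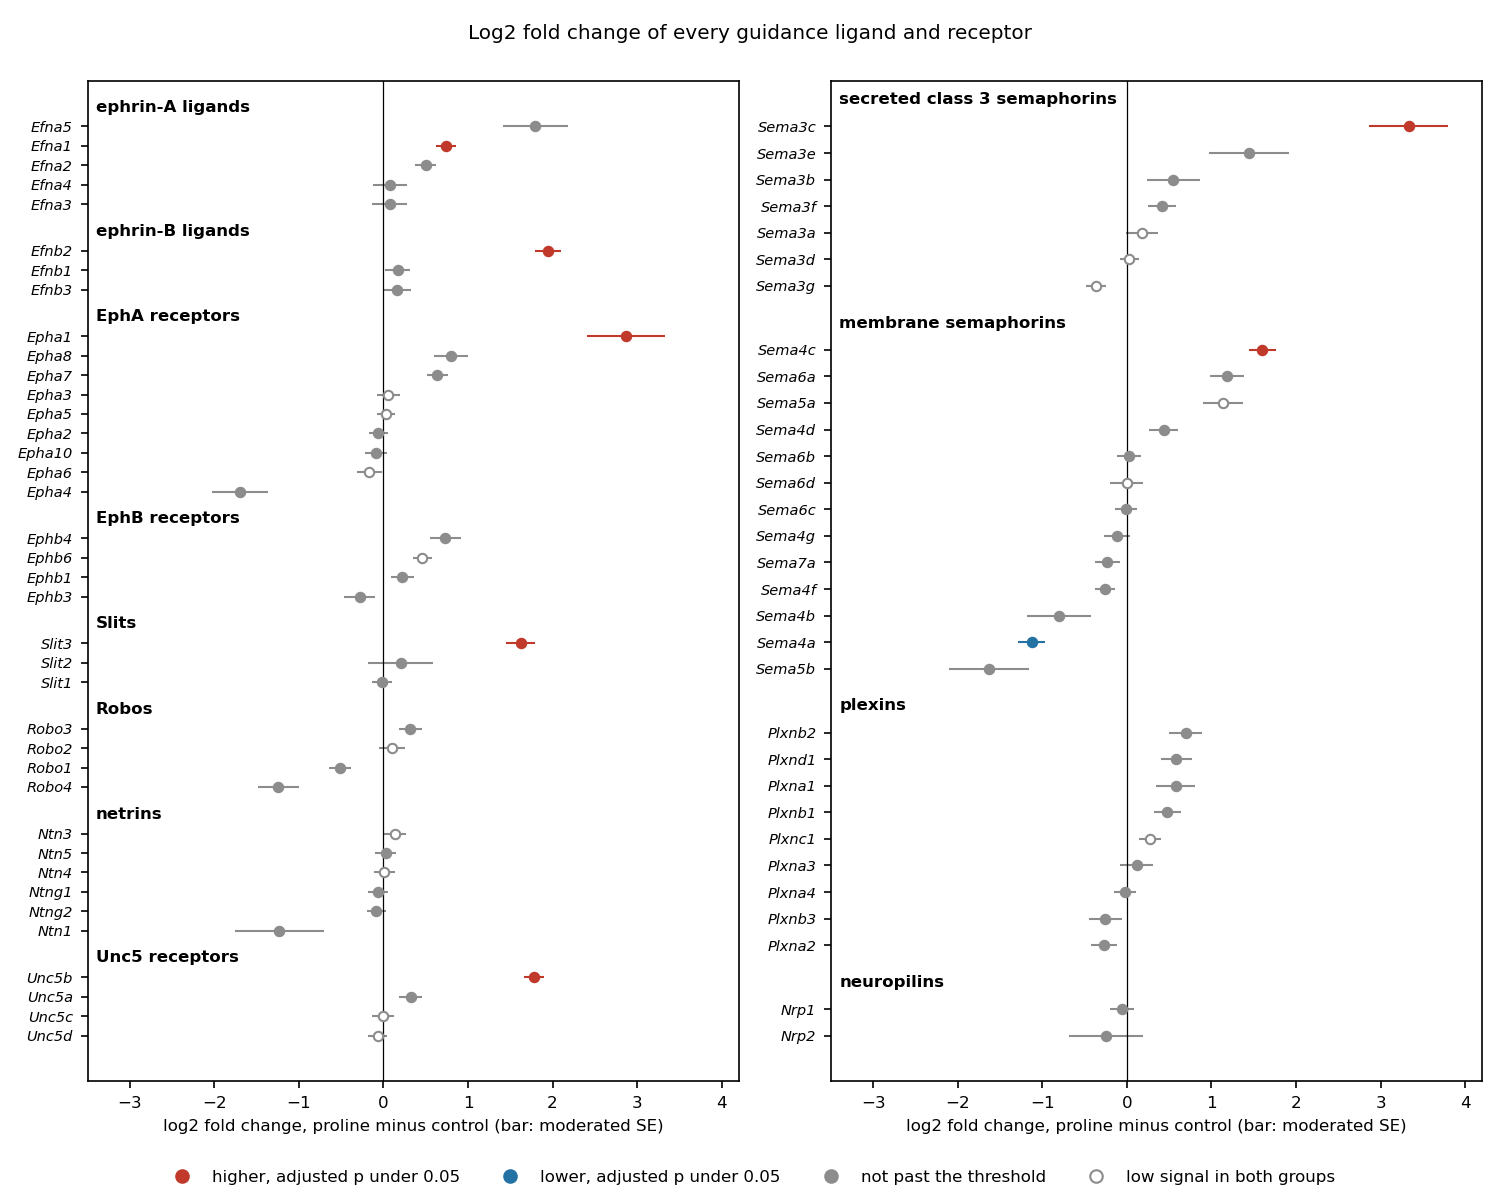
Log2 fold change, proline minus control, of all 69 guidance genes by family, with the moderated standard error as a bar, red and blue for genes higher and lower past an adjusted p of 0.05, grey for the others and open symbols for genes low in both groups. Most points sit near 0, and the 7 red points run from 0.74 for Efna1 to 3.33 for Sema3c.

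All 8 ephrins lay above 0, also after quantile normalization or median centring, and 2 of them rose. Efnb2, the transmembrane ligand of EphB receptors and a marker of arterial endothelium, had 9.45 and 9.17 in the proline replicates and 7.27 and 7.46 in the control replicates, a log2 fold change of 1.94 ± 0.16 (moderated SE, n = 2 per group, adjusted p = 0.025 in limma). Its proline arrays, from 9.06 to 9.55, lay well above its control arrays, from 7.20 to 7.58. Efna1, a lipid-anchored ligand that binds Epha2, had 6.60 and 6.67 after proline and 5.84 and 5.95 in controls, the smallest of the 7 rises (0.74 ± 0.12, adjusted p = 0.049 in limma). Efna5, a repellent ligand in the map from retina to midbrain, had 8.14 and 9.14 after proline and 6.60 and 7.08 in controls. That difference of 1.80 ± 0.38 was larger than that of Efna1, but its proline replicates lay 1.003 apart and it did not pass the threshold (adjusted p = 0.082 in limma). The other 5, Efna2, Efna3, Efna4, Efnb1 and Efnb3, had fold changes between 0.07 and 0.50.

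Among the 13 Eph receptors 1 rose, and the class held both the largest receptor rise and the largest receptor decrease in measured value. Epha1, an EphA receptor found mainly in epithelia, had 9.68 and 9.69 in proline cultures and 6.14 and 7.49 in controls, a measured 7.31-fold difference (log2 2.87 ± 0.46, adjusted p = 0.049 in limma). The proline replicates lay 0.01 apart and the control replicates 1.35 apart, with all arrays of proline above all arrays of control. Without control replicate 1 the log2 difference was 2.19 and without control replicate 2 it was 3.55, and neither fit passed the threshold. The call also ended under quantile normalization (adjusted p = 0.0547 in limma) and with the median over the gene's probe sets, where the difference was 1.22. Epha4, which binds both ephrin classes and repels axons of the corticospinal tract, had 7.83 and 7.76 in proline cultures and 9.97 and 9.02 in controls, and its difference of -1.70 ± 0.33 did not pass (adjusted p = 0.070 in limma). Again the proline replicates lay close and the control replicates apart, and the groups did not overlap. Epha2, the receptor bound by Efna1, had 10.17 and 10.27 after proline and 10.27 and 10.30 in controls, with a fold change of -0.06 ± 0.11. Ephb4, the receptor of Efnb2 in veins, had 8.10 and 8.48 after proline and 7.43 and 7.69 in controls (0.73 ± 0.19, adjusted p = 0.114 in limma). Ephb3 measured -0.28 and Ephb1 0.22. The 2 receptors Epha7 and Epha8 were low in controls and lay 0.64 and 0.80 higher after proline without passing, and Epha3, Epha5, Epha6 and Ephb6 were low in both groups. Epha10 measured -0.09.

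The 20 semaphorins held 2 rises and 1 fall. Sema3c, a secreted semaphorin needed for septation of the outflow tract of the heart, had the largest measured difference of the 69 genes. It had 7.62 and 8.27 after proline and 4.002 and 5.23 in controls (3.33 ± 0.47, adjusted p = 0.041 in limma), and its 4 differences between a proline and a control replicate ran from 2.39 to 4.27. Since both control values were low, the measured 10.1-fold difference is not exact. Sema3e, which binds Plxnd1 with no neuropilin, had 8.16 and 8.96 after proline and 6.54 and 7.69 in controls (1.44 ± 0.47, adjusted p = 0.181 in limma). Its arrays did not overlap between groups, but replicate 2 exceeded replicate 1 by 0.80 after proline and by 1.15 in controls. Sema3b and Sema3f measured 0.55 and 0.41. Sema3a, Sema3d and Sema3g were low in both groups, and Sema3g measured -0.36 ± 0.12.

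Of the 13 membrane semaphorins Sema4c rose, Sema4a fell and 11 did not pass. Sema4c, a ligand of Plxnb2 that acts in closure of the neural tube, had 8.77 and 8.42 after proline and 6.99 and 6.99 in controls (1.60 ± 0.16, adjusted p = 0.029 in limma). Sema4a, which is known from T cells and the retina, had 6.78 and 6.59 after proline and 7.96 and 7.65 in controls (-1.12 ± 0.16, adjusted p = 0.042 in limma). The 6 arrays of each group did not overlap for either gene. Sema5b, a class 5 semaphorin with thrombospondin repeats, had 6.40 and 5.82 after proline and 8.37 and 7.11 in controls (-1.63 ± 0.47, adjusted p = 0.142 in limma). Sema4b had 9.18 and 8.37 after proline and 9.95 and 9.20 in controls (-0.80 ± 0.38, adjusted p = 0.320 in limma). For Sema4b the arrays of the groups overlapped, as for no other of the 17 genes plotted by array. Chosen after their values were seen, Sema6a and Sema5a were the other 2 membrane semaphorins at least 2-fold higher with no overlap. Sema6a, a ligand of the A-type plexins, had 7.72 and 8.16 after proline and 6.61 and 6.90 in controls (1.19 ± 0.20, adjusted p = 0.055 in limma). Sema5a measured 1.14 and was low in both groups. The remaining 7 membrane semaphorins, Sema4d, Sema4f, Sema4g, Sema6b, Sema6c, Sema6d and Sema7a, measured between -0.26 and 0.44.

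None of the 11 semaphorin receptors and co-receptors passed the threshold, while 3 of 9 plexins and 0 of 2 neuropilins were higher at an unadjusted p under 0.05, where 12.7% of all genes were. Plexins ranged from -0.27 to 0.69, with 6 of 9 above 0 in the main scaling and in both other scalings. Plxnb2, the receptor of Sema4c, had 9.37 and 9.87 after proline and 8.89 and 8.95 in controls (0.69 ± 0.20, adjusted p = 0.140 in limma). Plxnd1, the receptor of Sema3e, had 5.44 and 5.86 after proline and 5.12 and 5.00 in controls, where it was low (0.59 ± 0.18, adjusted p = 0.157 in limma). Plxna1 and Plxnb1 measured 0.58 and 0.48, and Plxnc1 was low in both groups. Nrp1 had 5.62 and 5.65 after proline and 5.55 and 5.84 in controls, a fold change of -0.06 ± 0.15. Nrp2 measured -0.25 ± 0.44, with 7.33 and 8.47 after proline and 7.86 and 8.44 in controls, so that its replicates within a group differed by more than the groups did.

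**Figure D2:**
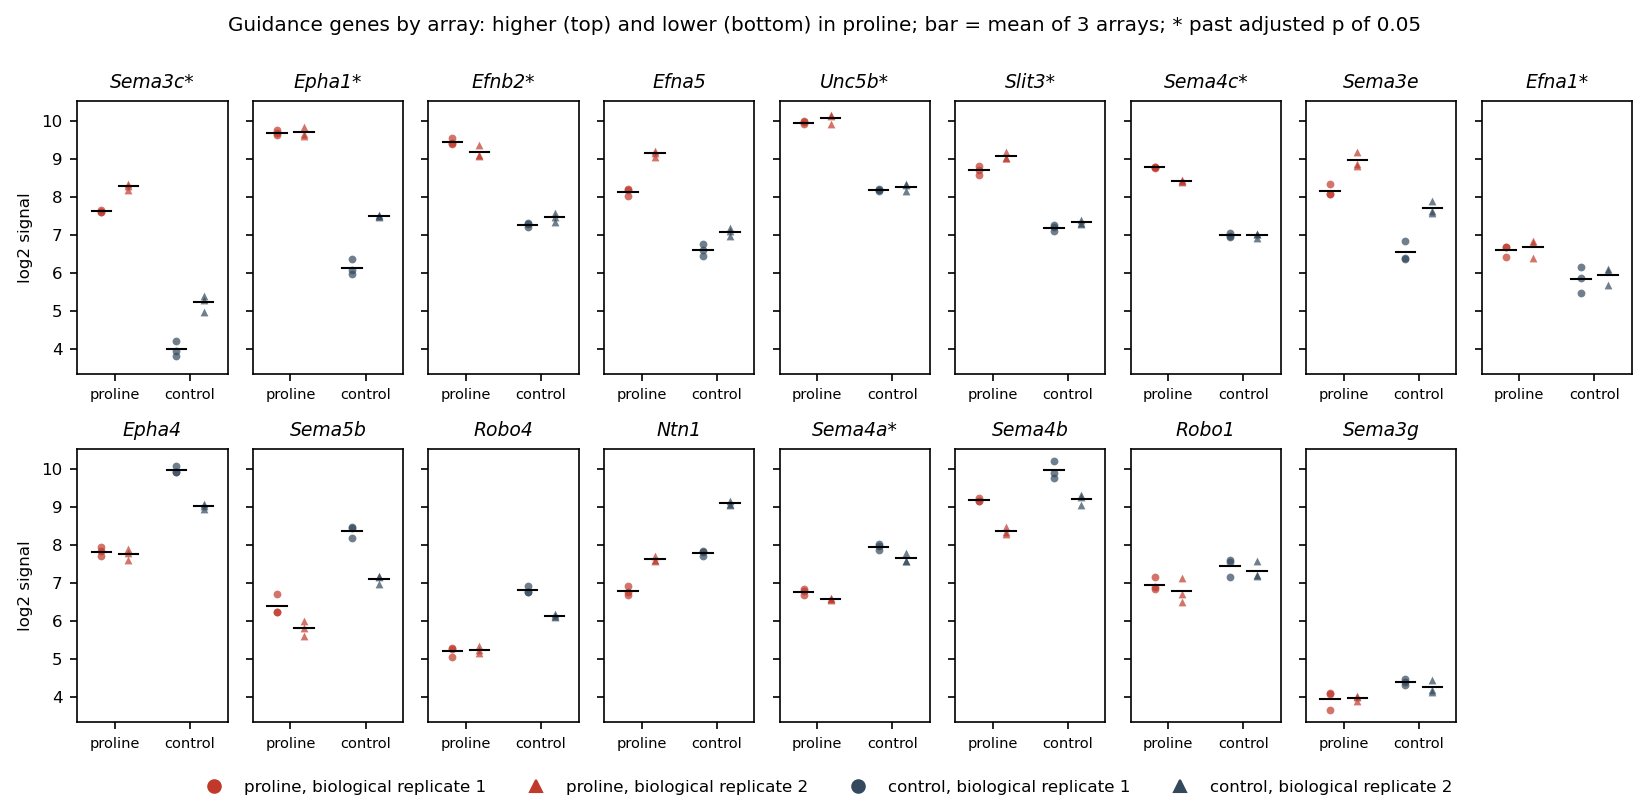
Log2 signal of the 17 genes with the largest rises and decreases or past the threshold, 1 point per array (circles replicate 1, triangles replicate 2, red proline, blue control, bar the mean of 3 arrays, asterisk an adjusted p under 0.05). Arrays of the same biological replicate lie close together for many genes, but less so for Robo1, Efna1 and Sema3g beside their small group differences. Robo1 had 6.50, 7.14 and 6.72 in proline replicate 2, and Efna1 had 6.15, 5.88 and 5.48 in control replicate 1. For 16 of the 17 genes, all but Sema4b, the 6 proline arrays do not overlap with the 6 control arrays. The 17 were picked by the test or by the size of the difference, which favours arrays that do not overlap. The share over all genes was not counted, and the 6 arrays of a group come from 2 biological replicates.

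Of the 3 Slits 1 rose, and 0 of 4 Robos passed in limma, with 2 lower at an unadjusted p under 0.05, where 9.32% of all genes were lower. Slit3, a secreted ligand of Robos needed for formation of the diaphragm, had 8.69 and 9.07 after proline and 7.19 and 7.33 in controls (1.62 ± 0.17, adjusted p = 0.029 in limma). The other 2 Slits stayed nearer to their controls in measured value. Slit1 had a fold change of -0.02 ± 0.12, and Slit2 had 6.21 and 6.98 after proline and 5.98 and 6.81 in controls (0.20 ± 0.39). Robo1, a main neural receptor of Slits, had 6.96 and 6.79 after proline and 7.45 and 7.33 in controls (-0.51 ± 0.13, adjusted p = 0.111 in limma). Robo4, known from endothelium, was low after proline at 5.21 and 5.26 and had 6.81 and 6.14 in controls (-1.24 ± 0.25, adjusted p = 0.072 in limma). Robo3 measured 0.32, and Robo2 was low in both groups. Of 6 endothelial markers, Pecam1, a cell adhesion gene, was 1.37 lower after proline (adjusted p = 0.036 in limma) and the other 5 did not pass, with 2 of 6 lower at an unadjusted p under 0.05. The second was the angiopoietin receptor gene Tek, with 5.22 and 5.59 after proline and 6.41 and 6.29 in controls (-0.95 ± 0.17, adjusted p = 0.060 in limma). Summed over the 6 markers, the signal was 323.9 to 336.8 after proline and 600.0 to 604.2 in controls. Pecam1 had 7.17 and 6.78 after proline and 8.38 and 8.31 in controls, where it was the brightest of the 6 and weighed most in the sum. Cdh5, Tie1 and Emcn were low in both groups. The part of endothelial transcripts in the Robo4 values was not tested.

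Among netrin ligands and receptors Unc5b rose and 0 of 6 netrins passed in limma, also at an unadjusted p under 0.05. Unc5b, a netrin receptor also active in blood vessels, had 9.95 and 10.06 after proline and 8.18 and 8.26 in controls, a 3.45-fold difference (log2 1.78 ± 0.12, adjusted p = 0.025 in limma). The gap between groups was many times that between replicates, 0.12 after proline and 0.08 in controls. The other 3 receptors, Unc5a, Unc5c and Unc5d, measured between -0.07 and 0.32, and Unc5c and Unc5d were low in both groups. Ntn1, which encodes netrin-1, the ligand of Unc5b and Dcc, had 6.79 and 7.63 after proline and 7.79 and 9.10 in controls (-1.23 ± 0.52, adjusted p = 0.273 in limma). Its second replicate exceeded the first by 0.84 after proline and by 1.31 in controls, so that proline replicate 2 lay only 0.16 under control replicate 1. Ntn3 and Ntn4 were low in both groups, and the other 5 netrins measured between -0.08 and 0.14. Dcc, which does not belong to the symbol families, measured -0.15 ± 0.13, and Neo1, neogenin, 0.45 ± 0.31, neither past the threshold.

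A gene's other probe sets give the same measure from other parts of its transcripts. Of the 69 genes, 46 had several probe sets, and of the 17 plotted by array 13 did, with 22 further probe sets between them. In 12 of those 13 every further probe set had the sign of the one used. The exception was Robo1, whose others ran from -0.42 to 0.05, the last low in mean signal. The sizes agreed less well. Unc5b measured 1.64 and Efna1 0.75 on their other probe set, and the 4 others of Epha4 ran from -2.19 to -1.60. The 3 others of Sema3e ran from 1.43 to 2.12. In contrast the other probe set of Sema3c measured 1.59, the 2 others of Epha1 measured 0.61 and 1.22, and the 3 others of Efnb2 ran from 0.43 to 2.10. Efna5 measured 0.44, Sema4a -0.84 and Ntn1 -0.07 on their other probe set. Those of Efna5 and Ntn1 were low in mean signal, as were the 0.61 of Epha1 and the 0.43 of Efnb2. The other of Efna1 and the -2.19 of Epha4 were low too, while those of Sema3c and Sema4a and the 1.22 of Epha1 were not. Among genes outside those 17, the 2 other probe sets of Sema6a measured 2.32 and 2.40, above the 1.19 of the one used, and those of Epha7 ran from 0.06 to 2.17. With every probe set tested by itself, 4 probe sets of the 69 genes were higher and 0 lower past the limma threshold. They were those used for Efnb2 and Unc5b and 1 other each of Epha7 (2.17, low in mean signal) and Sema6a (2.40), both at an adjusted p of 0.0474, so that 6 of the 8 calls were lost. With the median over probe sets, Efna1, Efnb2, Epha1, Sema3c and Sema4a did not pass, and Sema3c measured 2.46. Slit3 and Sema4c had 1 probe set each.

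**Figure D3:**
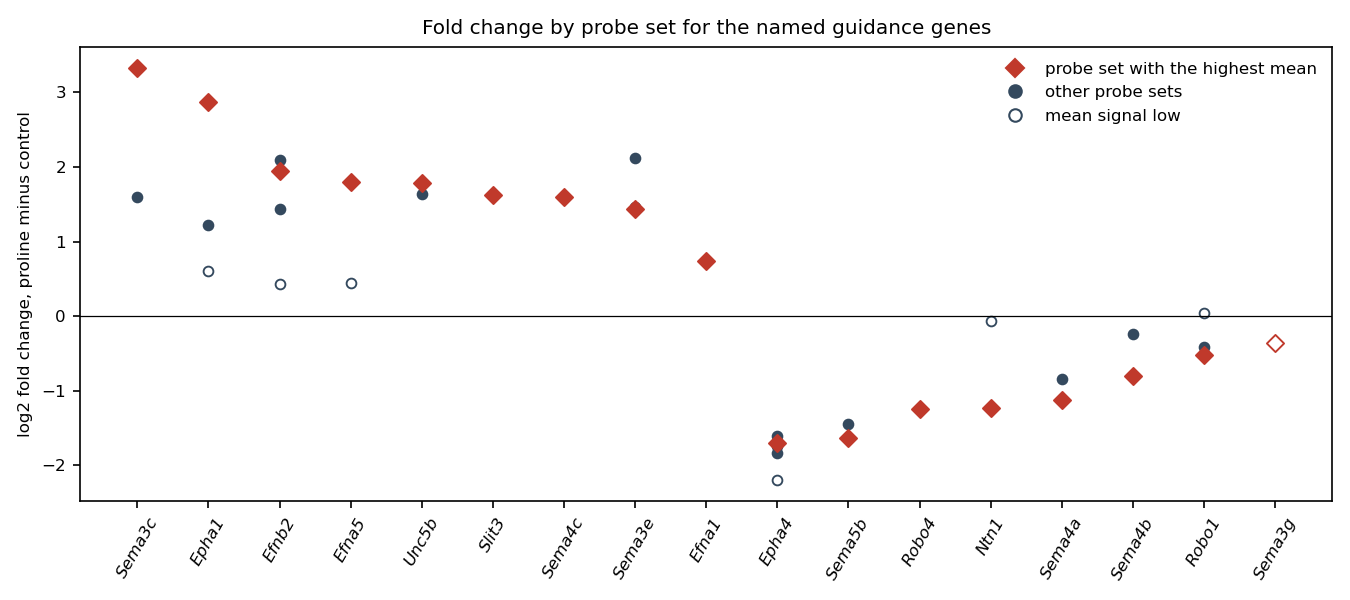
Log2 fold change, proline minus control, on every probe set of the same 17 genes, diamonds for the probe set used and circles for the others, open where the mean signal is low. The points of a gene share a side of 0 except for Robo1, and those of Epha1, Sema3c and Efnb2 spread most.

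Control replicate 2 lay nearer to the proline mean than control replicate 1 did for 16 of the 17 genes, Ntn1 being the exception, and for 43 of the 69. Over all genes this held for 55.3%, and for 67.4% of the 794 past the threshold. The median of the 69 fold changes was 0.21 between proline replicate 1 and control replicate 1 and 0.01 between proline replicate 2 and control replicate 2. Gaps over 0.5 between biological replicates occurred in 11 of the 69 genes after proline and in 10 in controls, beside 2030 and 2011 of all 18193 genes. Beta-actin 5′ minus 3′ signal was also higher in replicate 2 of both groups, by 0.42 after proline and 0.40 in controls, and its part in these gaps was not tested.

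Other genes of the guidance pathways were taken from a list of 89 co-receptors, further cues and intracellular effectors, of which 86 were measured. Past the threshold, 13 of 86 were higher and 0 were lower in limma, with 4 lower at an unadjusted p under 0.05. That is 15.1% higher, where all genes had 3.03%, and the median log2 fold change was 0.11. Of 36 co-receptors and further cues 7 rose. Adgrl2, the adhesion receptor latrophilin-2, had 11.17 and 11.56 after proline and 7.31 and 8.78 in controls (3.32 ± 0.51, adjusted p = 0.047 in limma). Nrcam, a neural cell adhesion gene that was low in controls, had 8.05 and 7.16 after proline and 4.19 and 5.14 in controls (2.94 ± 0.44). For both genes the groups lay farther apart than any 2 replicates of a group. Rgmb, a ligand of neogenin, measured 1.61, the growth factor receptor gene Met 1.73, the chemokine gene Cxcl12 1.56, the Hedgehog co-receptor gene Gas1 1.37 and Ptk7, an inactive receptor kinase of planar cell polarity, 1.31. Cxcr4, the receptor of Cxcl12, was low in both groups and measured -0.32 ± 0.29.

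Of the 50 effectors 6 rose. Farp1, an exchange factor that acts with class A plexins, measured 1.80, Nck2, an adaptor of Eph receptors, 1.26, and Dpysl5, of the collapsin response mediator family, 1.21. Trio, an exchange factor acting downstream of Dcc, measured 1.19, the ephrin-B scaffold gene Grip1 1.14 and the exchange factor gene Vav3, low in controls, 1.02. Adjusted p for the 13 rises lay between 0.025 and 0.0495 in limma. The median was 0.13 over the co-receptors and cues and 0.11 over the effectors.

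**Figure D4:**
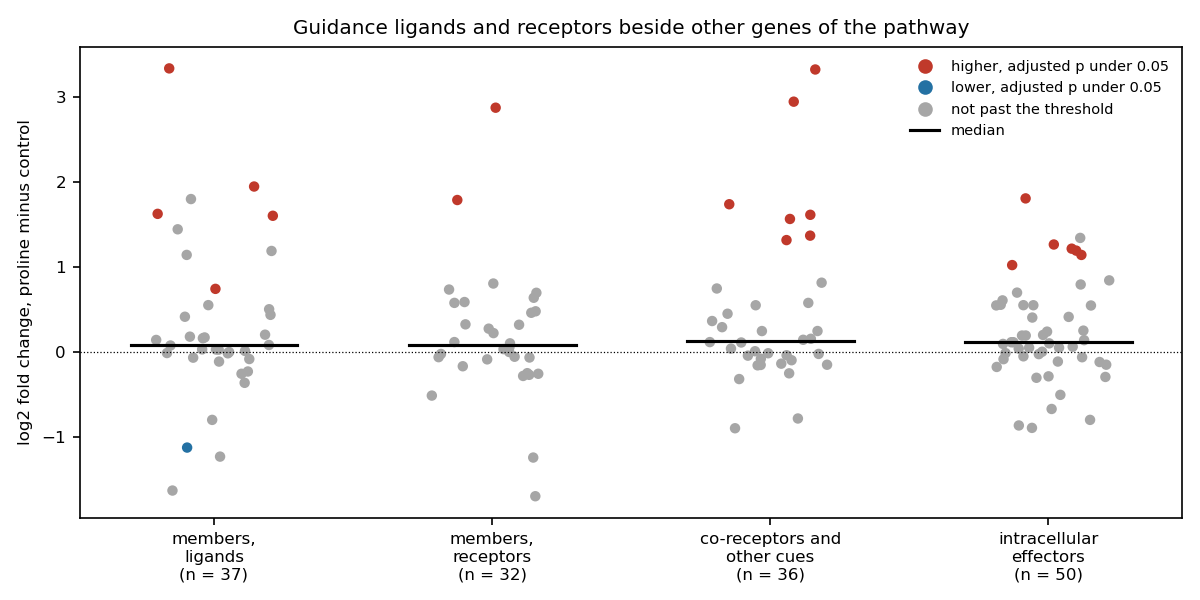
Log2 fold change, proline minus control, of the 37 ligands, the 32 receptors and 2 lists of other pathway genes, 36 co-receptors and cues and 50 effectors, 1 point per gene, with the median as a line. All 4 medians lie close to 0 (0.08 and 0.08 for ligands and receptors, 0.13 and 0.11 for the other lists), and the points past the threshold are higher after proline except Sema4a.

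Since guidance genes are best known from neurons, markers of neural cells stand beside them. Of 5 neural progenitor markers 3 rose, Msi1 by 2.20, Fabp7, low in controls, by 1.01, and Nes, which had 9.82 and 10.10 after proline and 7.66 and 8.26 in controls, while Sox1 was low in both groups and Pax6 did not pass. Their summed signal was 1463.9 to 1567.1 after proline and 362.6 to 479.3 in controls. Of 8 neuronal markers 0 rose in limma, with 3 higher at an unadjusted p under 0.05, where 12.7% of all genes were higher. These 3 were Map2 (1.77), Snap25 (1.07) and Syt1 (1.02). Tubb3, neuronal beta-tubulin, fell by 1.94 on the log2 scale (adjusted p = 0.036 in limma). Of the 8 markers 4 lay above 0 and 4 below. The summed signal of the 8 was 3341.8 to 6402.0 after proline and 6585.4 to 7489.9 in controls. That sum follows mostly Stmn2, by far the brightest of the 8, which did not pass. Stmn2 had 11.37 and 12.49 after proline and 12.67 and 12.49 in controls (-0.65 ± 0.39). Dcx, Elavl4 and Snap25 were low in both groups. Of 7 fibroblast markers 0 passed in limma and 1 was higher at an unadjusted p under 0.05, with sums of 530.6 to 756.1 after proline and 528.5 to 808.4 in controls. The part of other cell types in the values of the guidance genes was not tested.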

How the data were processed

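Log2 signals of 45101 probe sets on 12 arrays were used as the authors deposited them. The tools named in the submitters' processing notes are MAS5 and RMA, without versions. Which of them gave this log2 table is not given in the sources used here. Names came from the platform annotation updated through RefSeq GRCm38.p6 (0 symbols changed). The 34945 probe sets with 1 symbol gave 18193 genes, with the brightest probe set (by mean over all arrays) standing for a gene, and 64 array controls were left out. The meaning of the letters a to c in the sample titles is not stated, so the 3 arrays of a replicate number were averaged. The labels do not say how replicates were kept apart, so p-values measure only the spread between these 4 means, which may be technical. The number of arrays limits the precision.

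Tests used lmFit and eBayes of limma 3.58.1 (R 4.3.3), two-sided, with 2 residual and 2.60 prior degrees of freedom. The p-values were adjusted by Benjamini-Hochberg across the 18193 genes, and the threshold was 0.05. Folds that involve a low signal are measured values, not exact. Named genes were those past the threshold and the 8 largest increases and 8 largest decreases, plus pathway genes past the threshold, Dcc, Neo1, Cxcr4 and Cxcl12. The members, lists and rules were chosen with earlier results of these data known. Alternatives covered normalization, centring, dim signals, probe set choice, array or replicate blocks, an intensity trend, the symbol rule and each biological replicate left out. Promoters were read from a RefSeq table. Plots used matplotlib 3.10.9.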

Additional observations from a re-analysis of the deposited data

How the results depend on the processing

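The 8 called genes kept their direction under each alternative that tested them (all but the literal symbol rule, which left out Unc5b). Direction could turn only under quantile normalization, median centring or the median over probe sets. The other alternatives kept a gene's fold change as it was or, with a replicate left out, averaged differences of the same sign. The median fold change of the guidance genes stayed between 0.03 and 0.13, over 69 genes, or over 52 with dim genes left out, 67 by the literal rule and 154 probe sets taken singly. Quantile normalization left Epha1 short of the threshold (adjusted p = 0.0547 in limma) and the intensity trend Efna1, while median centring lost none. With dim genes left out 2 guidance genes were lower, against 1 in the report, beside 2.26% of all genes kept. Using the median of each gene's probe sets gave 351 genes past the threshold in all, against 794, kept 3 of the 8 calls and gave 3 guidance genes at least 2-fold lower, against 5. Every probe set tested by itself gave 4 guidance probe sets higher and 0 lower in limma, beside 0.366% and 0.169% of all probe sets, and 187 in all. At an unadjusted p under 0.05 in limma, 17 guidance probe sets were lower. By size, 20 were at least 2-fold higher and 10 lower, with the share over all probe sets not given here. That setting kept 2 of the 8 calls, Efnb2 and Unc5b. Arrays in a random block gave 18 higher and 6 lower, beside 12.7% and 9.17% of all genes, and 3987 genes in all. Without 1 biological replicate, guidance genes higher, guidance genes lower and all genes past the threshold were 0 to 0 in limma, with 2766 to 3676 of all genes at an unadjusted p under 0.05, and 3 to 5 guidance genes were at least 2-fold lower. The replicate block takes equal replicate numbers of both groups as paired. It gave 13 higher and 6 lower, beside 7.05% and 4.16% of all genes, and 2039 in all, and lost no call. The labels give no shared day or source for these replicate numbers. Replicate 2 minus replicate 1 correlated between the groups at r = 0.338 across genes, and 2 pairs cannot settle pairing. The cause of these differences in counts was not tested, beyond the number of tests and of replicates each alternative uses. Dim signals limit what can be said of the 15 genes low in both groups, the 4 low in controls (Sema3c, Epha7, Epha8 and Plxnd1) and Robo4, low after proline.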
